A study of Mus musculus with 6 samples.

Results

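The potassium channel genes described here are the mouse genes whose symbol starts with Kcn, apart from Kcnip1 to Kcnip4, Kcnd2, Kcnd3 and Kcnj10. Members were taken by symbol, and a gene with several clusters was represented by that of highest mean. Of 19937 genes with a transcript cluster (a group of probes over 1 transcribed region) of their own on the array, 85 met this rule. Of these, 3 are noncoding RNAs and the others encode proteins.

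RNA came from primary neurospheres, the floating colonies that neural precursor cells form in culture, grown from the hippocampus of adult male C57BL/6J mice of 8 to 12 weeks in medium with EGF and bFGF and collected on day 14. The N group (3 arrays) was grown with 10 µM norepinephrine and the K group (3 arrays) with 15 mM potassium chloride. Each array is labelled as a biological replicate of small neurospheres, a size that the sources do not define. The sources also do not say whether a replicate is 1 mouse or a pool. No untreated neurospheres are among the arrays, so a difference cannot be assigned to either agent. A neurosphere holds stem cells, precursors and their differentiating progeny, and the arrays measured the mixture.

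Potassium channels let potassium ions leave the cell, which sets the resting potential and ends electrical excitation. Voltage-gated (Kv) channels are tetramers of alpha subunits, to which cytosolic or membrane-spanning partners and electrically silent subunits can bind. Inward rectifiers and leak channels hold the resting potential of glia and precursors, and calcium-activated channels couple it to calcium signals. Norepinephrine acts on G-protein-coupled receptors, whereas added potassium chloride depolarises cells directly by lowering the potassium gradient that these channels use.

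All values are log2 values from the robust multi-array average (RMA), in which a difference of 1 is a doubling of signal. The median over all clusters was 6.34. Clusters differ in their probes, so a higher value in 1 gene than in another does not rank the genes by abundance. Over all clusters, K replicate 3 stood farthest from its fellow replicates (mean correlation 0.948), and K replicates 1 and 2 were closer to the N group (0.955 and 0.969) than to their own (0.954 each). Among markers, Sox2 averaged 10.16 ± 0.26 and 9.90 ± 0.27 (SD, n = 3 arrays each, N then K), and the neuronal gene Map2 averaged 10.84 ± 0.050 and 11.17 ± 0.070. Of 8 neuronal markers Dcx, Gad1, Rbfox3 and Slc17a7 lay below 6.34 on every array, as did Cdh5, Cldn5, Pecam1 and Tek of 5 endothelial markers. In limma, 31 genes, or 0.155% of those tested, passed at an adjusted p under 0.05.

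None of the 85 potassium channel genes passed the adjusted threshold in limma (0 of 85, with a background of 0.155%). The lowest adjusted p was 0.244, for Kcnv1. At an unadjusted p under 0.05 the count was 9 of 85 (10.6%), against 8.54% of all genes, a share near the background. Of the 9, 7 (8.24% of the members) had higher values with N, where the background for that direction was 4.64%. These were Kcnn3, Kcnv1, Kcna2, Kcnu1, Kcnj8, Kcnq3 and Kcna6. The other 2 (2.35%), Kcnmb4 and Kcna5, had lower values with N, where the background was 3.89%. Neither share was tested against its background. In 14 members the N and K arrays did not overlap (16.5%, with a background of 13.3%). All N arrays lay above in 8 (9.41%, background 5.78%) and below in 6 (7.06%, background 7.55%). The rule of the study's positive set, a log2FC over 1 in size with an unadjusted p under 0.05, was met by 1 member, Kcnmb4, and by 0.492% of all genes. The median log2FC (N minus K) of the members was -0.02 and that of all genes -0.03.

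The precision sets how far these values go. The standard error of a member's log2FC ran from 0.11 to 0.34 with a median of 0.14, against a median of 0.15 over all genes. These errors are moved by limma towards the spread of all genes and do not rest on a gene's own arrays alone. The 95% interval lay within -1 to 1 for 81 of the 85 members and within -0.5 to 0.5 for 57. The 4 members whose interval reached beyond a log2FC of 1 in size were Kcnmb4, Kcnrg, Kcnf1 and Kcnn3. Of the 85 members 43 had a log2FC under 0.1 in size (41.7% of all genes did), and 4 exceeded 0.5 in size (4.88% of all genes did), namely Kcnmb4, Kcnn3, Kcnv1 and Kcna2. A gene that missed the threshold is not shown to be equal in both groups.

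**Figure D1:**
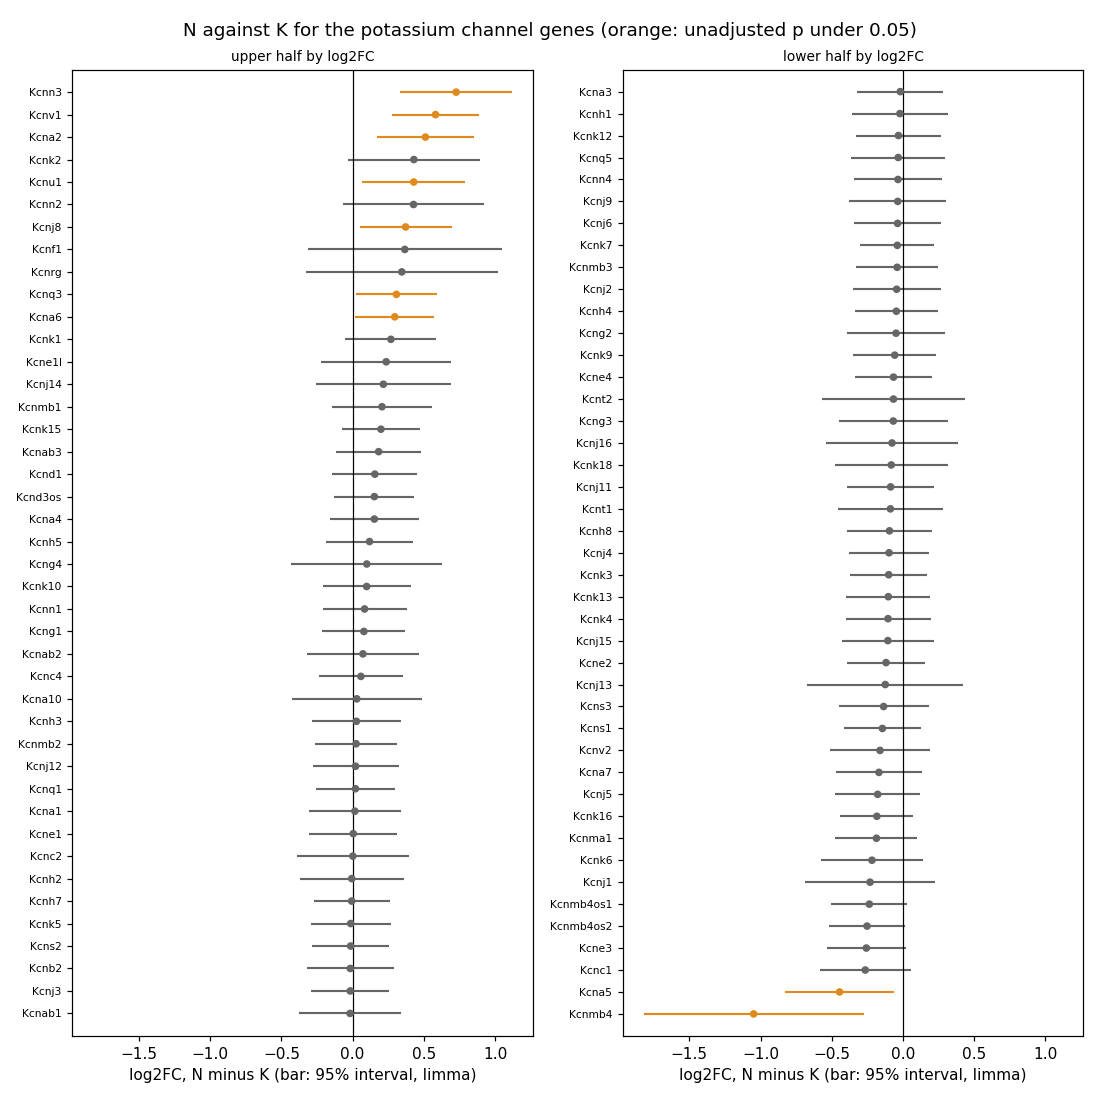
Log2FC of N minus K (horizontal axis, log2 units) for each of the 85 potassium channel genes, ordered by value over 2 panels, with bars for the 95% interval from limma (3 arrays per group) and orange for an unadjusted p under 0.05. Kcnmb4 at -1.05 and Kcnn3 at 0.73 mark the ends, and most intervals cross 0.

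The values of each array were compared with the signal of all clusters to describe which members gave a signal. In 28 of the 85 members (32.9%) all 6 arrays lay above the median of all clusters, against 48.2% of all genes. In 36 members all 6 arrays lay below it, and 21 lay on both sides. Single member values ran from 4.4 to 8.99. The median of the member means was 6.23 and that of all genes 6.55, values that depend on the probes and do not compare abundance.

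**Figure D2:**
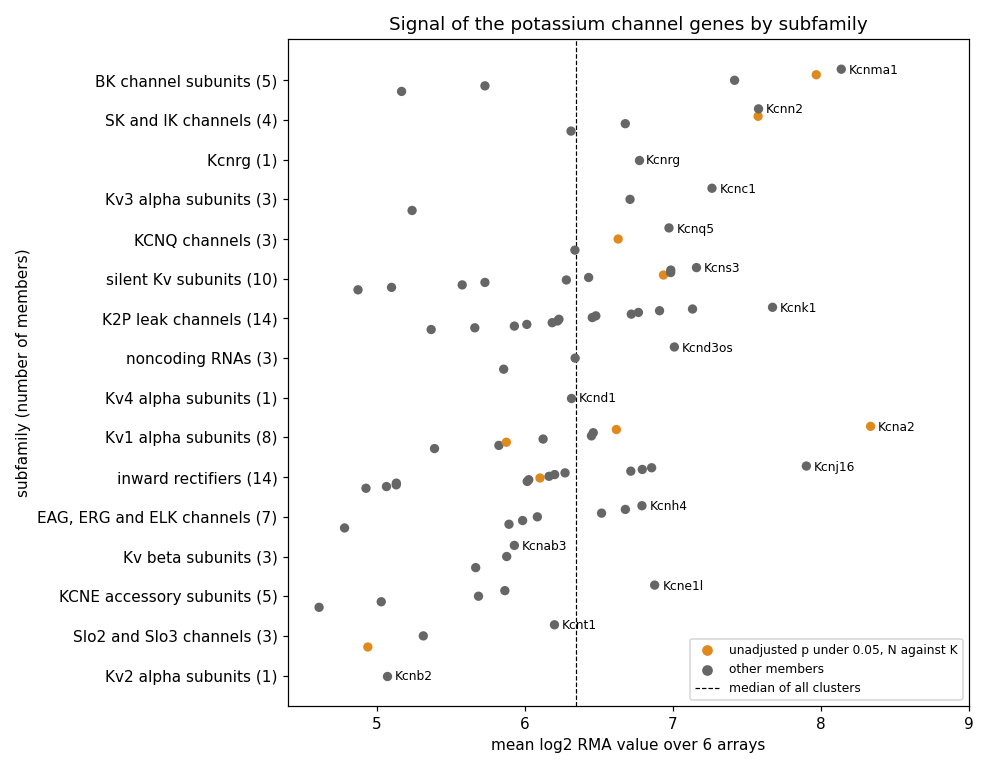
Mean log2 RMA value over the 6 arrays (horizontal axis) of each potassium channel gene by subfamily (vertical axis), with the gene of highest signal named, orange for an unadjusted p under 0.05 between N and K, and a dashed line at the median of all clusters, 6.34. Kcna2, Kcnma1 and Kcnmb4 lie farthest to the right, and the Kv beta subunits all lie to the left of the line.

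The calcium-activated channels held both the highest and the lowest log2FC. SK channels (Kcnn1 to Kcnn3) open when calcium binds calmodulin on the channel and slow repeated firing, and Kcnn4 encodes the related intermediate-conductance channel. Kcnn3, the SK3 gene, read 7.82, 7.80 and 8.20 on N replicates 1 to 3 and 7.05, 7.08 and 7.51 on K replicates 1 to 3. All N arrays lay above all K arrays, and replicate 3 was the highest in both groups. The log2FC was 0.73 (standard error 0.17, adjusted p = 0.263 from limma). Kcnn2, the SK2 gene, read 7.69, 7.38 and 8.31 with N and 7.33, 7.45 and 7.31 with K. Its groups overlapped, N replicate 3 stood highest, and the log2FC was 0.43 (standard error 0.22, adjusted p = 0.656 from limma). Without N replicate 3 it was 0.17 and without N replicate 2 it was 0.63 (adjusted p = 0.612 from limma). Kcnn1 and Kcnn4 had log2FC of 0.08 and -0.04.

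Large-conductance BK channels respond to both voltage and calcium and consist of the pore subunit Kcnma1 with a beta subunit, of which Kcnmb4 is the form typical of neurons. Kcnmb4 read 8.99, 8.90 and 7.59 on K replicates 1 to 3 and 7.63, 7.19 and 7.52 on N replicates 1 to 3. K replicates 1 and 2 lay above every N array by more than the whole N range, whereas K replicate 3 lay inside that range, so that the groups overlapped. The log2FC was -1.05 (standard error 0.34, 95% interval -1.82 to -0.28, adjusted p = 0.419 from limma), and the SD of the K arrays was 0.78 against 0.23 for N. Without K replicate 3 the log2FC was -1.50 (standard error 0.16, adjusted p = 0.0469 from limma, 9 genes passing in all), and Kcnmb4 was then the only member to pass. Without K replicate 1 or K replicate 2 it was -0.80 and -0.85, and without N replicate 2 it was -0.92, all under the size of the positive rule. The call for Kcnmb4 thus depends on single arrays.

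The pore subunit Kcnma1 read 8.01, 8.16 and 7.97 with N and 8.36, 8.23 and 8.10 with K. Its groups overlapped, and its log2FC was -0.19 (standard error 0.13, adjusted p = 0.756 from limma). A second, dim cluster of Kcnma1 had means of 3.65 with N and 4.03 with K, a log2FC of -0.38 in the same direction. With the mean of its clusters the log2FC of Kcnma1 was -0.28 (unadjusted p = 0.0437, adjusted p = 0.559 from limma). The other beta subunits stayed within 0.21 of 0. Kcnmb1, the form of smooth muscle, had a log2FC of 0.21, Kcnmb2 0.02 and Kcnmb3 -0.04. On GRCm38 (mm10), Kcnmb4 lies on chromosome 10 from 116417861 to 116473859. The noncoding RNA Kcnmb4os1 lies inside it, from 116418121 to 116421235, and Kcnmb4os2 spans its upper end, from 116473163 to 116474987. Both were chosen for description after their values were seen. Kcnmb4os1 read 6.15, 6.18 and 6.33 with N and 6.52, 6.43 and 6.42 with K, and Kcnmb4os2 read 5.72, 5.80 and 5.67 with N and 5.89, 6.08 and 5.97 with K. For both RNAs all N arrays lay below all K arrays, with log2FC of -0.24 and -0.25 (standard error 0.12 each, adjusted p = 0.639 and 0.616 from limma). Their K replicate 3 stood with the other K arrays, unlike that of Kcnmb4. How far probes of these overlapping genes read each other's RNA was not tested.

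**Figure D3:**
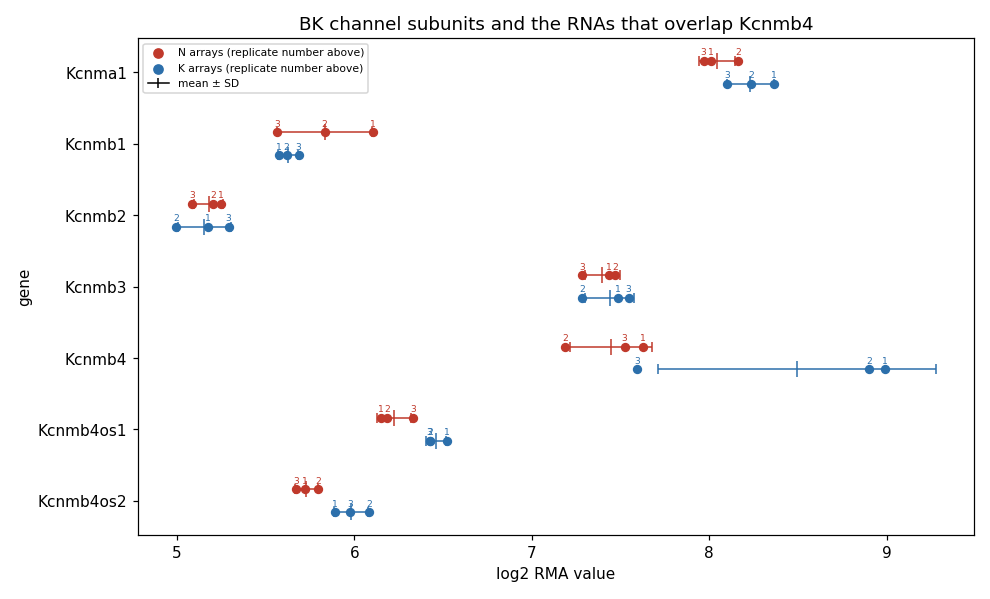
Log2 RMA values (horizontal axis) of the BK channel subunits and of the RNAs that overlap Kcnmb4, with N arrays in red and K arrays in blue (n = 3 each, replicate numbers above the points) and bars for mean ± SD. K replicate 3 of Kcnmb4, at 7.59, lies among the N arrays while K replicates 1 and 2 lie near 9.

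The start regions of the members with the lowest and the highest log2FC are shown because they differ in base composition and because Kcnmb4os2 runs across the one of Kcnmb4. Each window is the RefSeq stretch of 300 bases, 250 before and 50 after an annotated transcript start, on GRCm38.p6 and printed 5′ to 3′ on the gene's strand, with each CG dinucleotide in capitals. The Kcnmb4 window is chr10:116473474-116473773 (minus strand) and holds 48 CG dinucleotides. The Kcnn3 window is chr3:89519914-89520213 (plus strand) and holds 11. The Kcnmb4 window lies wholly inside the span of its gene, whose upper end is 116473859. The Kcnn3 window instead begins outside its gene, which starts at 89520164. The 2 CG counts thus come from unlike positions.
Kcnmb4: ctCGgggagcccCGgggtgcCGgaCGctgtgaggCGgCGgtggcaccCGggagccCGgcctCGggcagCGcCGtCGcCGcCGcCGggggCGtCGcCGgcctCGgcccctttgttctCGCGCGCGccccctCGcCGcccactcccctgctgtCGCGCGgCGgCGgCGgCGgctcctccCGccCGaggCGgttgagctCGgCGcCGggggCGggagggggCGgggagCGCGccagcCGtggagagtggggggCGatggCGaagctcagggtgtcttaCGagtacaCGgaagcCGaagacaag
Kcnn3: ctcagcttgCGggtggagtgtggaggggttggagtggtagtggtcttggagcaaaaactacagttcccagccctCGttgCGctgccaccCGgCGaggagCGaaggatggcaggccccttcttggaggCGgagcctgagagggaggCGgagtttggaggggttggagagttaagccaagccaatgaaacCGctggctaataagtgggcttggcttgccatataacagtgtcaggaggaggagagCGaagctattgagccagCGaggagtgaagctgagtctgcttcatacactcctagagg
A window was found for 63 of the 85 members, with a median of 9 CG dinucleotides per window and a range of 0 to 49, against a median of 7 over all windows of the table. The cAMP response element, which binds CREB and is read in cells with raised cAMP or calcium, was searched on both strands in its full form TGACGTCA and its short form TGACG, which the full form contains. The full form was in the windows of 0 of the 63 members and of 2.03% of all genes, and the short form in 17 members (27.0%) and 23.0% of all genes. Of the 9 members with an unadjusted p under 0.05, 6 had a window, Kcna6 and Kcnj8 were among the 17, and neither printed window holds it. These are matches of letters within the windows and nothing more.

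Among the Kv1 alpha subunits, which form low-threshold channels of axons and also occur in glia, 3 of 8 had an unadjusted p under 0.05, as had 8.54% of all genes, and so small a group sets nothing apart. Kcna2, the Kv1.2 gene, read 8.54, 8.60 and 8.63 with N and 8.08, 7.82 and 8.34 with K. The N arrays were nearly equal and all above the K arrays, with a log2FC of 0.51 (standard error 0.15, adjusted p = 0.364 from limma). A second cluster of Kcna2 had means of 6.94 with N and 6.53 with K, a difference of 0.41 in the same direction. Kcna6, the Kv1.6 gene, read 6.69, 6.92 and 6.68 with N and 6.53, 6.41 and 6.48 with K, so the groups did not overlap. Its log2FC was 0.30 (standard error 0.12, adjusted p = 0.555 from limma). Kcna5, the Kv1.5 gene, pointed the other way, with 5.55, 5.67 and 5.74 with N and 6.40, 5.78 and 6.11 with K. All N arrays lay below the K arrays, but N replicate 3 and K replicate 2 were almost level (log2FC -0.45, standard error 0.17, adjusted p = 0.512 from limma). The values of Kcna5 lay mostly below the median of all clusters. The remaining Kv1 genes, Kcna1, Kcna3, Kcna4, Kcna7 and Kcna10, had log2FC from -0.17 to 0.15. The cytosolic Kv beta subunits Kcnab1, Kcnab2 and Kcnab3, which bind Kv1 channels, lay below the median of all clusters on every array and had log2FC of -0.02, 0.07 and 0.18.

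The silent Kv subunits do not form channels alone but alter Kv2 channels when they join them. Kcnv1, the Kv8.1 gene, had the lowest p of all members, ranked 167 among all genes. It read 7.31, 7.37 and 7.01 with N and 6.59, 6.71 and 6.64 with K. The K arrays were close together, every N array lay above them, and the log2FC was 0.58 (standard error 0.13, 95% interval 0.28 to 0.89, adjusted p = 0.244 from limma). Its relative Kcnv2 was dim, at 5.49 ± 0.065 with N and 5.66 ± 0.27 with K (SD, n = 3 arrays each). Of the other silent subunits, Kcng1, Kcng2 and Kcns3 lay above the median of all clusters on every array and had log2FC of 0.08, -0.05 and -0.14. Kcnf1, the Kv5.1 gene, varied widely within both groups, with 6.93, 5.98 and 6.93 with N and 6.26, 5.79 and 6.69 with K. Replicate 2 was lowest in both groups, and its log2FC was 0.37 (standard error 0.30), 0.14 without K replicate 2 and 0.68 without N replicate 2. In Kcns1 all N arrays lay below the K arrays, by a log2FC of -0.14. The Kv2 gene Kcnb2, whose protein such subunits join, was dim (5.06 ± 0.097 with N and 5.08 ± 0.17 with K, SD, n = 3 arrays each).

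The remaining voltage-gated members differed less. Kcnq3 encodes a subunit of the M-current, which receptors coupled to G proteins can close. It read 6.94, 6.72 and 6.70 with N and 6.55, 6.38 and 6.50 with K, without overlap (log2FC 0.31, standard error 0.12, adjusted p = 0.545 from limma). Its relatives Kcnq5 and Kcnq1 had log2FC of -0.03 and 0.02. Kcnc1, the Kv3.1 gene of fast-firing cells, read 7.21, 7.0 and 7.19 with N and 7.20, 7.41 and 7.59 with K, so the groups overlapped at a single pair of arrays (log2FC -0.27, standard error 0.14, adjusted p = 0.666 from limma). Kcnc4 and Kcnc2 had log2FC of 0.06 and 0.001. All 7 genes of the EAG, ERG and ELK channels had log2FC between -0.10 and 0.12, Kcnh1 (-0.02), Kcnh2 (-0.01) and Kcnh4 (-0.05) included, and the signs of Kcnh1 and Kcnh2 turned when the arrays were rescaled. Kcnd1, a Kv4 gene, had 0.16, and the noncoding RNA Kcnd3os 0.15. Of the KCNE subunits, small proteins that modify voltage-gated channels, Kcne1l had the highest signal (6.99 ± 0.20 with N and 6.76 ± 0.38 with K, SD, n = 3 arrays each), while Kcne1, Kcne2, Kcne3 and Kcne4 lay below the median of all clusters on every array. Kcne3 had all N arrays below the K arrays at a low signal (log2FC -0.26). Kcnrg, whose protein interferes with the assembly of Kv channels, read 6.45, 6.88 and 7.48 with N and 6.50, 7.11 and 6.19 with K, with wide spread in both groups (log2FC 0.34, standard error 0.30).

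Inward rectifiers pass potassium more easily into the cell than out and clamp the resting potential. Kcnj8, the Kir6.1 gene, encodes the pore of ATP-sensitive channels of vascular cells and read 6.49, 6.30 and 6.07 with N and 6.02, 5.86 and 5.87 with K. The groups did not overlap, although N replicate 3 and K replicate 1 were close (log2FC 0.37, standard error 0.14, adjusted p = 0.523 from limma). Its partner Abcc9, the sulfonylurea receptor of vascular cells, had means of 5.83 and 5.84. Kcnj16, the Kir5.1 gene, which in astrocytes joins Kir4.1, had the highest signal of the inward rectifiers described here, which leave out Kcnj10. It read 7.97, 7.82 and 7.80 with N and 7.94, 8.37 and 7.51 with K, and the K arrays spread on both sides of the N arrays (log2FC -0.08, standard error 0.20). Kcnj13, the Kir7.1 gene of choroid plexus and other epithelia, read 7.08, 6.68 and 6.62 with N and 7.15, 7.25 and 6.36 with K (log2FC -0.12, standard error 0.24). Of the 14 inward rectifiers all but Kcnj8 had log2FC between -0.23 and 0.22.

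Leak channels of the K2P family give a steady outward current at rest. Kcnk1, the TWIK-1 gene, had the highest signal among them, with 7.58, 7.86 and 7.99 with N and 7.47, 7.52 and 7.63 with K. N replicate 1 lay below K replicate 3, so the groups overlapped (log2FC 0.27, standard error 0.14, adjusted p = 0.663 from limma). Kcnk2, the TREK-1 gene, whose channel is closed by protein kinase A, had a log2FC of 0.43 with a wide spread among the N arrays (SD 0.39, adjusted p = 0.627 from limma). In Kcnk15 all N arrays lay above the K arrays (log2FC 0.20) and in Kcnk16 all lay below (log2FC -0.18). The other 10 genes had log2FC from -0.22 to 0.10. Among sodium- and pH-activated channels, Kcnu1, the Slo3 gene known from sperm, read 5.02, 5.20 and 5.24 with N and 4.43, 4.77 and 4.96 with K. These are among the lowest signals of the family, with all arrays below the median of all clusters, and the groups did not overlap (log2FC 0.43, standard error 0.16, adjusted p = 0.501 from limma). Kcnt1 and Kcnt2 had -0.09 and -0.07.

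**Figure D4:**
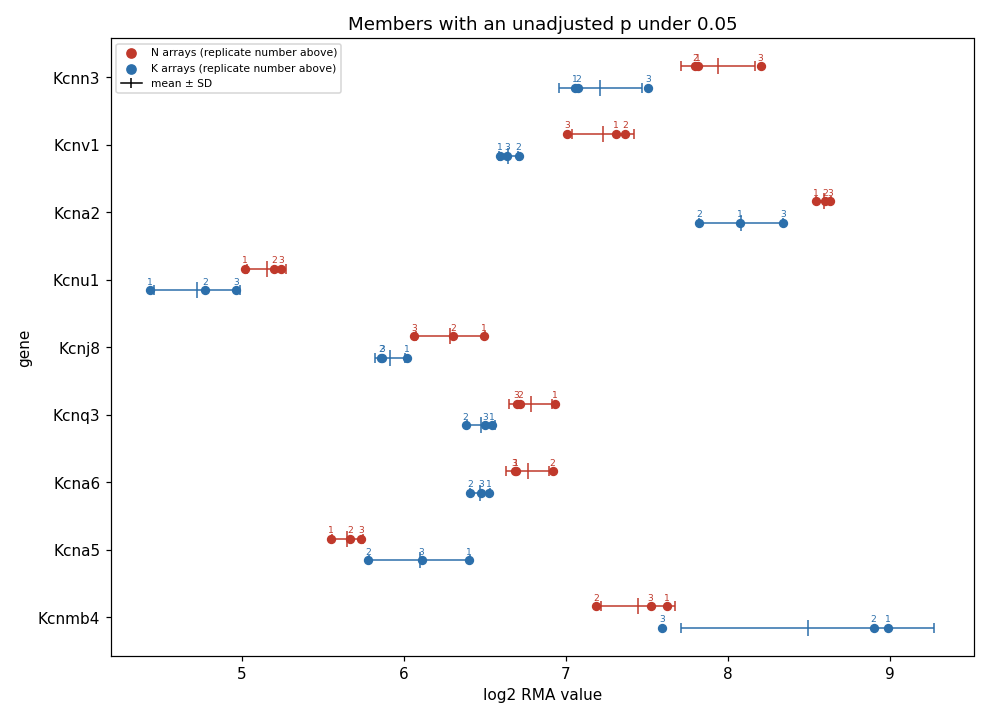
Log2 RMA values (horizontal axis) of the 9 potassium channel genes with an unadjusted p under 0.05, with N arrays in red and K arrays in blue (n = 3 each, replicate numbers above the points) and bars for mean ± SD. The groups are apart in all of them except Kcnmb4, where K replicate 3 lies among the N arrays.

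Each array was left out in turn to see which values rest on 1 array. Kcnn3, Kcnv1 and Kcna2 stayed at an unadjusted p under 0.05 in all 6 of these fits, with log2FC of 0.59 to 0.87, 0.51 to 0.69 and 0.38 to 0.64. Kcnmb4 did so in 4 of the 6 fits, Kcnu1 in 3, Kcnj8, Kcnq3 and Kcna5 in 2, and Kcna6 in 0. The 9 genes were chosen by their p on these same arrays, so these fits are no independent support. No sign changed among them. Apart from Kcnmb4 none could change, because the N and K arrays did not overlap.

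**Figure D5:**
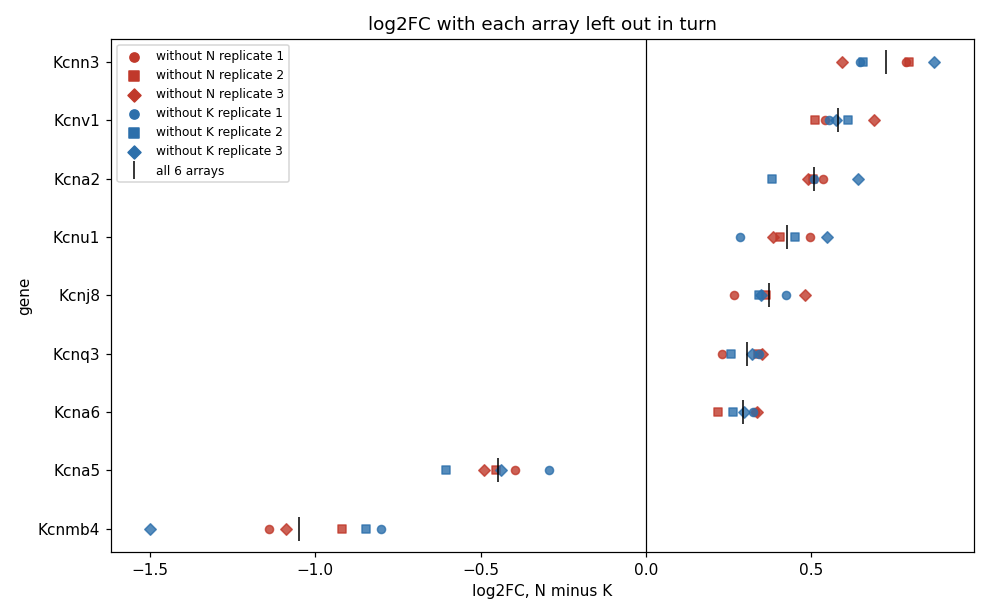
Difference of N from K in log2 units (horizontal axis) for the 9 genes with an unadjusted p under 0.05, with black bars for all 6 arrays and a symbol for each fit without 1 array (red for N arrays, blue for K arrays). The symbols of Kcnmb4 spread from -1.50 to -0.80, those of the other genes less.

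Genes of proteins that join potassium channels without carrying a Kcn symbol were examined as a list of 15, of which 14 were measured. None passed at an adjusted p under 0.05. At an unadjusted p under 0.05 the count was 1 of 14, against 8.54% of all genes, a share near the background. This 1 was Ank3, which anchors KCNQ and sodium channels at the axon initial segment. Ank3 read 8.65, 8.42 and 8.59 with N and 8.00, 8.09 and 8.10 with K, without overlap (log2FC 0.49, standard error 0.12, adjusted p = 0.267 from limma). The median log2FC of the 14 was -0.02. Amigo1, a partner of Kv2 channels, had -0.29, and the scaffold gene Dlg4, which clusters Kv1 channels, had 0.21.

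Marker genes of some cell types differed between the same arrays at an unadjusted p under 0.05, a threshold met by 8.54% of all genes. Of 7 astrocyte markers 5 had an unadjusted p under 0.05, all higher with N, Gfap passed after adjustment, and none lay below the median of all clusters on every array. The log2 of their summed linear signal was 12.53 to 12.75 on the N arrays and 12.13 to 12.25 on the K arrays. Of 6 precursor markers Vim (log2FC 0.44) and Prom1 (0.40) were higher and Nes (-0.53) lower with N at an unadjusted p under 0.05, and the sum was 13.54 to 13.64 with N and 13.36 to 13.58 with K, with Prom1 below the median of all clusters on every array. Of the 8 neuronal markers Snap25 (0.81) and Tubb3 (0.47) were higher and Map2 (-0.32) lower with N at an unadjusted p under 0.05. Their sum, in which Map2 had the largest share, was 11.17 to 11.28 with N and 11.41 to 11.49 with K, while the median log2FC of the list was -0.03. The part of these shifts in the channel values was not tested. In a mixed culture, fewer cells of a type and less RNA per cell cannot be told apart. For pericytes and smooth muscle, the cells of Kcnj8, 0 of 5 markers had an unadjusted p under 0.05, and their sums overlapped (8.60 to 8.77 with N and 8.42 to 8.74 with K). Of these markers Anpep, Pdgfrb and Vtn lay below the median of all clusters on every array, so the list does not show whether such cells were present. The sums of the 5 choroid plexus markers overlapped as well (8.16 to 8.59 and 8.26 to 8.94), with Otx2 lower with N at an unadjusted p under 0.05 and Clic6, Kl and Otx2 below the median of all clusters on every array.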

How the data were processed

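RNA of small mouse neurospheres (3 N and 3 K samples) was hybridised to Affymetrix Mouse Gene 1.0 ST arrays, 1 per sample. The authors summarised the scans with RMA in Partek Genomics Suite, and the deposited log2 values were used unchanged. Versions and settings are not given in the sources used here. Of 34760 clusters, 21640 carried exactly 1 symbol in the platform annotation, and each of 19937 genes was represented by its cluster of highest mean. All 85 member gene IDs were found in RefSeq (GRCm38.p6), and 0 symbols changed. N and K were compared over all genes in limma 3.58.1 (R 4.3.3, moderated test, differences as N minus K), with Benjamini-Hochberg adjustment over all genes and a threshold of 0.05. P-values rest on the spread between 3 arrays per group, moved by limma towards that of all genes (prior degrees of freedom 4.59, residual 4). The 3 arrays per group limit the precision, and an exact permutation test cannot go below 0.1. The fit was run on simulated data with planted shifts larger than nearly all member log2FC. The only condition set was that their mean log2FC be recovered. Power and false calls of the fit are not given here. Genes named are members with an unadjusted p under 0.05, those with non-overlapping groups and a log2FC over 0.4 in size, the 2 members of highest signal per symbol prefix, and Kcne2, Kcnh1 and Kcnj13. Other members were given to complete a subfamily or a count, and Kcnk2, Kcnrg and the Kcnmb4 opposite-strand RNAs were chosen after their values were seen. Members and lists were chosen with earlier results of these data known. Sequences came from RefSeq. Figures were drawn with matplotlib 3.10.9.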

Additional observations from a re-analysis of the deposited data

How the results depend on the processing

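Under the alternatives, other normalizations, clusters, filters and models and each array left out, the count of potassium channel genes at an adjusted p under 0.05 was 0 throughout, except for 1, Kcnmb4, without K replicate 3, so that it ran from 0 to 1 with an array left out. The counts at an unadjusted p under 0.05 with 1 array left out ran from 4 to 6 for genes higher with N and from 1 to 3 for genes lower with N. The share of all genes at that threshold, in both directions, ran from 6.27% without N replicate 1 to 14.6% without K replicate 2. In these 2 fits 6 and 7 of the 85 members had such a p. The count lower with N was 4 without moderation, namely Kcne3, Kcnk16, Kcnmb4os1 and Kcnmb4os2, while Kcnmb4 and Kcna5 dropped out. In that fit 9 members had an unadjusted p under 0.05, 5 of them shared with the main fit, beside 7.03% of all genes. With genes above the cluster median only, 6 of 36 members had such a p, 1 of them lower with N, beside 10.1% of the genes kept. The positive rule was met by 0 members without moderation, by 2 with a 1.5-fold threshold and by 0 to 1 with an array left out. The labels do not say whether replicate numbers pair the arrays. Deviations from the group means correlated at 0.043, 0.043 and 0.121 for same-numbered arrays and at -0.144 to 0.113 for differently numbered ones. With 3 arrays per group these ranges overlap and do not decide it. With the replicate block the unadjusted counts were 7 higher and 2 lower with N, beside 9.4% of all genes in both directions. Kcnf1 and Kcnk2 stood in place of Kcna6 and Kcnq3, and 41 genes in all passed after adjustment. The median log2FC of the members was 0.02 with quantile normalization and -0.02 as deposited, so it has no settled sign. Kcnn3, Kcnv1 and Kcna2 had an unadjusted p under 0.05 in all 15 alternatives, with adjusted p from limma of 0.110 to 0.650, 0.170 to 0.610 and 0.260 to 0.710. These genes were chosen by their p in the main fit. The alternatives reuse the same arrays and include the fits with 1 array left out, so they are no independent support.

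Values near 0 changed sign. Kcnh1, Kcnh2, Kcnb2 and Kcnt2 did so with the arrays rescaled, Kcnh1 to 0.017 (quantile), 0.0048 (centred) and 0.031 (cyclic loess), Kcnh2 to 0.020 (centred) and 0.022 (cyclic loess), Kcnb2 to 0.043, 0.010 and 0.058 under the same 3 settings and Kcnt2 to 0.0022 (cyclic loess). With 1 array left out, log2FC ran from -0.118 to 0.075 for Kcnh1, -0.112 to 0.160 for Kcnh2, -0.108 to 0.035 for Kcnh4, -0.404 to 0.038 for Kcnj13, -0.293 to 0.139 for Kcnj16, -0.130 to 0.079 for Kcnq5, -0.077 to 0.083 for Kcnb2, -0.018 to 0.109 for Kcnc4, -0.00064 to 0.136 for Kcng1, -0.147 to 0.101 for Kcng2, -0.228 to 0.015 for Kcnt1 and -0.279 to 0.086 for Kcnt2. The causes were not tested.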
